A study of Mus musculus with 374 samples.

Results

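The proteins that carry the T cell receptor signal inside the cell were followed through 7 genes: the kinases Zap70 and Prkcq, the adaptors Lat, Lcp2 and Skap1, the small GTPase Rhoh and the phosphatase Ptpn22. Of these, 6 are measured here among 19829 mouse genes, and Ptpn22 is not analysed here. The counts are UMIs, molecular tags that mark single captured transcripts near their 3′ end, so a level is not divided by the length of the gene. They came from 374 single cells sorted into the wells of 1 plate from 1 C57BL/6 female mouse aged 10 to 13 weeks, untreated as far as the labels say, and processed by CEL-seq2, a plate-based single-cell method. The thymus gave 43 T lymphocytes (CD3+, low forward scatter). The bone marrow of this mouse gave 44 B lymphocytes (B220+, low forward scatter), 96 granulocytes (Mac1+ Gr1+), 96 erythroblasts (Ter119+ CD44+, middle to high forward scatter) and 95 progenitor/stem cells (LSK, that is Lin- Kit+ Sca1+). The T lymphocytes are therefore thymocytes, and tissue and cell type cannot be told apart.

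The T cell receptor has no enzyme of its own. When it binds its ligand, Src family kinases phosphorylate the CD3 chains, Zap70 docks on them and phosphorylates the membrane scaffold Lat and the cytosolic adaptor Lcp2 (SLP-76), on which the next enzymes assemble. Rhoh binds Zap70 and helps to bring it to the receptor, Skap1 links the signal to integrin adhesion, and Prkcq passes it to the NF-κB pathway. B lymphocytes and myeloid cells build similar cascades with relatives of these proteins, among them Syk, Blnk, Lat2, Skap2 and Prkcd.

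Each population is 1 sample, so no test was possible, and the 95% exact intervals given below cover counting error only. The UMIs summed to 200396 for T lymphocytes, 135808 for B lymphocytes, 403506 for granulocytes, 666728 for erythroblasts and 834812 for progenitor/stem cells, and levels are CPM, the UMIs of a gene scaled to these sums (counts per 1000000). For a sum of 0 the CPM of 3 UMIs serves as the limit, which is 15.0, 22.1, 7.43, 4.50 and 3.59 in the same order, while the exact interval of a sum of 0 reaches 18.4, 27.2, 9.14, 5.53 and 4.42. Each population had the highest summed level of its own markers, and the 8 T lymphocyte markers summed to 3957 CPM in the T lymphocytes and 39.0 to 73.6 CPM elsewhere. The erythroblast markers reached 13279.6 to 29188 CPM in the other 4 populations, and their part in the values below was not tested. No cell barcode was shared between wells, and 7 of the 374 wells lay nearer another population than their own label. Among these are the T lymphocyte well P4, with 426 UMIs, and the B lymphocyte wells A8 and B6.

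For Zap70, Lat, Lcp2 and Rhoh the promoter is shown, since these 4 genes cover the patterns described below: Zap70 and Lat led by the T lymphocytes, Lcp2 shared with granulocytes, and Rhoh shared with B lymphocytes. The sequences are RefSeq's (GRCm38.p6), 250 bases before and 50 bases from the start of transcription, 5′ to 3′ on the strand of the gene. Short motifs were searched on both strands. For the Runx factors the letters were TGTGGT, a core of their known binding site. For the Ets factors, which bind around a purine-rich core, the letters were GGAAGT and nothing longer. E-boxes, the sites of the E proteins, were searched in a form read as CAGGTG and in a second form, the same on both strands, read as CAGCTG in either direction. No motif contains another, and capitals mark the matches. The table held promoters of 5 members, with 3 starts for Zap70, of which the one at the start of the gene is shown. For Rhoh the start of transcription lies 2371 bases inside the gene as placed by the GENCODE M21 annotation used below. For Zap70, Lat and Lcp2 the distance to the start of the gene is 0, 2 and 8 bases.
Zap70, chr1:36761548-36761847, + strand: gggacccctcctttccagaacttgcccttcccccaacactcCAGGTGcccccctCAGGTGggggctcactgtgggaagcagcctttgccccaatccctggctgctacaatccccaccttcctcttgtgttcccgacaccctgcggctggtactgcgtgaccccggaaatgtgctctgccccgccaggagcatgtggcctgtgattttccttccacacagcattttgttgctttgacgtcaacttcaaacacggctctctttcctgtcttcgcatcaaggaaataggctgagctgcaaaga
Lat, chr7:126369519-126369818, - strand: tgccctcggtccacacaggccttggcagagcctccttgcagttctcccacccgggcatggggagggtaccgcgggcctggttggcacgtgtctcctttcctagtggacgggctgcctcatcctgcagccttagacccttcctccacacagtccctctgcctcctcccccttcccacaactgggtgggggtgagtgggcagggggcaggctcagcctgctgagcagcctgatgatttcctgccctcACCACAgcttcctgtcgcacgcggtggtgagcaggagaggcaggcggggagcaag
Lcp2, chr11:34046678-34046977, + strand: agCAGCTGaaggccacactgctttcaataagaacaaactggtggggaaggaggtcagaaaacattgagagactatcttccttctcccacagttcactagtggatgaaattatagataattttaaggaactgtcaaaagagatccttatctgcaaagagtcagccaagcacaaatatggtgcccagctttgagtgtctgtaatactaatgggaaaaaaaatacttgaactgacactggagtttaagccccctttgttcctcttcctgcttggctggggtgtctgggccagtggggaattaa
Rhoh, chr5:65863334-65863633, + strand: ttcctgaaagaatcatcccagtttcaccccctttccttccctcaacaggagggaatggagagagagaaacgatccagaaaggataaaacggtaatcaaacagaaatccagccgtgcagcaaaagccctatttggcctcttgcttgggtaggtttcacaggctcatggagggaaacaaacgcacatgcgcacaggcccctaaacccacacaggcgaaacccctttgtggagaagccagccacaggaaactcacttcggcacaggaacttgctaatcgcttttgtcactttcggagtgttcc
The Zap70 window held the first E-box at 2 places, the Lat window the Runx letters once, on the strand opposite to the gene, and the Lcp2 window the second E-box once, while the Rhoh window held none of the letters searched. Of 32851 promoters of this length, 20.2% held the first E-box, 16.8% the Runx letters, 16.3% the second E-box and 23.8% the Ets letters, so that matches of this kind are common. The other Zap70 windows, at chr1:36764265-36764564 and chr1:36778734-36779033, held the Runx and the Ets letters once each and the first E-box once. A match is a description of the letters.

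By the GENCODE M21 annotation of GRCm38 (the authors' own build is not known), Zap70 lies at chr1:36761798-36782818, Lat at chr7:126363824-126369570, Lcp2 at chr11:34046920-34092295, Rhoh at chr5:65861213-65896700, Prkcq at chr2:11172108-11301222 and Skap1 at chr11:96464593-96759130. Exons of Lcp2 and Skap1 overlap a gene on the opposite strand (4930469K13Rik and 2010300F17Rik), and those of Lat overlap Mir7058 on the same strand. Whether the counting used strand is not given in the sources used here, so reads of such partners cannot be told apart.

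Zap70, the kinase that docks on the phosphorylated receptor, gave 32 UMIs in T lymphocytes, 1 in B lymphocytes, 2 in granulocytes and 0 in erythroblasts and progenitor/stem cells. The level in the T lymphocytes was 160 CPM (interval 109 to 225). It was 21.7 times that of the B lymphocytes (3.62 to 883), 32.2 times that of the granulocytes (8.22 to 277), at least 35.5-fold higher than in the erythroblasts and at least 44.4-fold higher than in the progenitor/stem cells, the last pair taken against 3 UMIs over the population. With the counting error of the 32 UMIs included, the exact lower limits of this pair were 27.2 and 34.1. Also taken against 3 UMIs, the ratios to the B lymphocytes and the granulocytes were 7.23 and 21.5. Per T lymphocyte well the count ran from 0 to 3 with a median of 0. The single UMI of the B lymphocytes lay in well B6, which held 485 UMIs in all and is one of the wells nearer another population, so that the B lymphocytes stood at 0 without it. Averaged over wells instead of summed, this 1 UMI put the B lymphocytes at 46.9 CPM against 152 CPM in the T lymphocytes.

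Prkcq, the protein kinase C isoform of the T cell synapse, gave 3 UMIs in the T lymphocytes, each in a different well, 1 among progenitor/stem cells and 0 elsewhere. Its 15.0 CPM in the T lymphocytes (3.09 to 43.7) rests on these 3 UMIs, and since no population exceeded 3 UMIs no ratio is given.

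**Figure D1:**
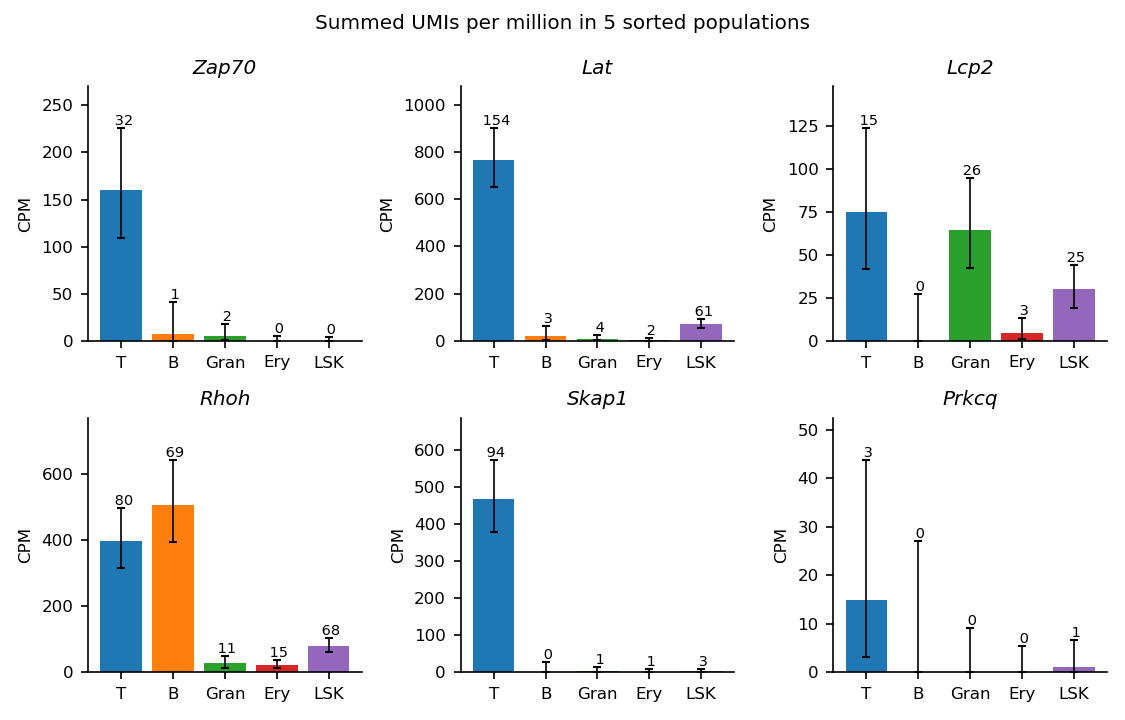
Level of each member in the 5 sorted populations (T, T lymphocytes; B, B lymphocytes; Gran, granulocytes; Ery, erythroblasts; LSK, progenitor/stem cells). Bars give CPM from summed UMIs on a linear axis that differs between panels, error bars are 95% exact Poisson intervals, and the number above each bar is its UMIs. Zap70, Lat and Skap1 stand out in T lymphocytes, Rhoh has tall bars in T and B lymphocytes, and Lcp2 in T lymphocytes and granulocytes.

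Lat, the scaffold that Zap70 phosphorylates, had the most UMIs of the members in the T lymphocytes. It gave 154 UMIs there, 61 among progenitor/stem cells, and 3, 4 and 2 among B lymphocytes, granulocytes and erythroblasts. The T lymphocytes were at 768 CPM (652 to 900) and the progenitor/stem cells, next in order, at 73.1 CPM (55.9 to 93.9), a ratio of 10.5 (7.77 to 14.4). The progenitor/stem cells in turn were at 3.31 times the level of the B lymphocytes (1.08 to 16.5), but this depended on the scaling: the ratio was 2.70 (0.880 to 13.4) with scran size factors, 2.71 (0.885 to 13.5) with the total without the 20 most abundant genes and 8.28 (2.70 to 41.3) with ERCC UMIs. By contrast, the intervals of the ratios between B lymphocytes, granulocytes and erythroblasts included 1. The T lymphocytes of plate row O stood at 925 CPM (101 UMIs) and those of row P at 581 CPM (53 UMIs). Both lie outside the interval of 652 to 900 CPM, but that interval covers neither the counting error of a row nor the spread between cells. Of the members only Rhoh went the other way, with 357 CPM in row O and 450 CPM in row P. Whether the level varied over the plate was not tested. A T lymphocyte well held 0 to 9 UMIs of Lat with a median of 4, and a progenitor/stem cell well 0 to 6 with a median of 0. With ERCC spike-in UMIs as the denominator the log2 ratio of T lymphocytes over progenitor/stem cells was 2.50 instead of 3.39, while the median of all genes moved from -0.26 to -1.16.

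The Lat counts of the progenitor/stem cells were set beside those of the receptor. Cd3d, Cd3e and Cd3g, the CD3 chains, summed to 265 UMIs in T lymphocytes and 7 in progenitor/stem cells, so that Lat stood at 0.581 UMIs per CD3 chain UMI in the first and 8.71 in the second. Skap1 and Zap70, with 94 and 32 UMIs in the T lymphocytes, gave 3 and 0 in the progenitor/stem cells. The 8 T lymphocyte markers gave 40 UMIs together in the progenitor/stem cells, of which 17 were Cd4, 8 Tcf7 and 6 Cd3e, and 1 of the 8, Cd3g, was at 0. The 4 plate rows of progenitor/stem cells gave 18, 19, 17 and 7 Lat UMIs, the last in the row beside the T lymphocytes. What part T lymphocyte RNA had in the Lat counts was not tested.

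Lcp2, the adaptor that works beside Lat, was low and spread over several lineages. It gave 15 UMIs in T lymphocytes (74.9 CPM, 41.9 to 123), 26 in granulocytes (64.4 CPM, 42.1 to 94.4), 25 in progenitor/stem cells (29.9 CPM, 19.4 to 44.2), 3 in erythroblasts and 0 in B lymphocytes. T lymphocytes and granulocytes did not differ beyond counting error (ratio 1.16, 0.572 to 2.28), and their order turned with scran size factors, where the log2 ratio was -0.46 instead of 0.22, and with the total taken without the 20 most abundant genes (-0.12). Granulocytes stood at 2.15 times the level of the progenitor/stem cells (1.19 to 3.88), a difference that was not beyond counting error with ERCC UMIs as the denominator (1.11, 0.615 to 2.00) and was 3.82 (2.12 to 6.89) with scran size factors. The progenitor/stem cells stood above the erythroblasts by 6.66 times (2.03 to 34.4), or 3.30 times (1.006 to 17.1) with scran size factors. No well of any population held more than 3 UMIs of Lcp2. The 4 CD3 chain UMIs of the granulocytes compare with their 26 UMIs of Lcp2, against 265 and 15 in the T lymphocytes.

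Skap1, the adaptor towards integrin adhesion, gave 94 UMIs in the T lymphocytes and 0, 1, 1 and 3 in the B lymphocytes, granulocytes, erythroblasts and progenitor/stem cells. At 469 CPM (379 to 574) the T lymphocytes exceeded the progenitor/stem cells by 131 times (43.3 to 644), the granulocytes by 189 times (33.2 to 7554) and the erythroblasts by 313 times (54.8 to 12482), and were at least 21.2-fold higher than the B lymphocytes, taken against 3 UMIs (exact lower limit 16.9). Against the same 3 UMIs the ratios to the granulocytes and the erythroblasts, each at 1 UMI, were 63.1 and 104. With ERCC UMIs as the denominator the ratio to the progenitor/stem cells was 70.3 (23.3 to 347). A T lymphocyte well held 0 to 6 UMIs with a median of 2, and no well elsewhere held more than 1. Neighbours in the order of the other populations did not differ beyond counting error.

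Rhoh, the haematopoietic GTPase that binds Zap70, was the member with its highest CPM outside the T lymphocytes. The lead of the T lymphocytes in Lcp2, given above, was within counting error. The B lymphocytes gave 69 UMIs of Rhoh (508 CPM, 395 to 643) and the T lymphocytes 80 (399 CPM, 317 to 497). Their ratio, B over T, was 1.27 (0.909 to 1.78), so the order between them is within counting error. It depended on the scaling: B over T was 1.41 (1.006 to 1.97) with scran size factors and 1.46 (1.045 to 2.05) with the total without the 20 most abundant genes, and the order turned with ERCC UMIs (0.943, 0.674 to 1.32). The progenitor/stem cells followed with 68 UMIs and 81.5 CPM (63.3 to 103), below the T lymphocytes by a ratio of 4.90 (3.50 to 6.87), or a log2 ratio of 2.29 that was 1.40 with ERCC UMIs as the denominator. Granulocytes, with 11 UMIs and 27.3 CPM, and erythroblasts, with 15 UMIs and 22.5 CPM, were lowest and did not differ beyond counting error. Per well the count ran from 0 to 7 in T lymphocytes, with a median of 2, and from 0 to 5 in B lymphocytes, with a median of 1. The B lymphocyte markers summed to 309 CPM in T lymphocytes and 9558 CPM in B lymphocytes, and their part in the Rhoh level was not tested. The 69 UMIs of Rhoh in the B lymphocytes stand beside 2 of the CD3 chains.

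Among genes with at least 20 UMIs over all wells, 21.8% of 9512 were highest in T lymphocytes and 15.1% in B lymphocytes. Of the 5 members that reach 20 UMIs, Zap70, Lat, Lcp2 and Skap1 were highest in T lymphocytes and Rhoh in B lymphocytes, while Prkcq had its 3 UMIs in the T lymphocytes. A fold of 4, with sums under 3 UMIs set to 3, was also counted in genes with at least 20 UMIs in the pair of populations. Against the B lymphocytes 3 of 4 members were past it, all higher in the T lymphocytes, where 6.92% of 3064 genes were. Against the granulocytes it was 4 of 5 members (10.2% of 4394 genes), against the erythroblasts 4 of 4 (16.3% of 5111) and against the progenitor/stem cells 4 of 5 (2.96% of 7565). No member was 4-fold lower in the T lymphocytes, where 4.21%, 10.5%, 10.0% and 3.21% of genes were. The median log2 ratio of these members was 3.63, 4.42, 5.93 and 3.39, and that of all the genes 0.27, 0.48, 0.29 and -0.26. Members reached 20 UMIs mostly through their counts in the T lymphocytes, so these counts and medians are given as a description.

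Wells with a UMI were counted for each member. Lat was found in 41 of 43 T lymphocyte wells (95.3%, 84.2 to 99.4), Skap1 in 36 (83.7%, 69.3 to 93.2), Rhoh in 33 (76.7%, 61.4 to 88.2), Zap70 in 18 (41.9%, 27.0 to 57.9), Lcp2 in 12 (27.9%, 15.3 to 43.7) and Prkcq in 3 (6.98%, 1.46 to 19.1). Per well the median depth was 4347 UMIs for T lymphocytes, 3028.5 for B lymphocytes, 3880 for granulocytes, 6113.5 for erythroblasts and 7959 for progenitor/stem cells. Each well was therefore thinned to 2000 UMIs, which leaves 42, 33, 86, 95 and 95 wells in this order. The thinned shares in the T lymphocytes were 76.9% for Lat, 58.0% for Skap1, 54.6% for Rhoh, 23.8% for Zap70, 13.7% for Lcp2 and 2.98% for Prkcq. In the erythroblasts, which use none of these proteins for a T cell receptor, the thinned shares were 0.645% for Lat, 0.257% for Skap1, 4.72% for Rhoh and 1.37% for Lcp2. Rhoh was found in 32 of 44 B lymphocyte wells (72.7%), and after thinning the share was 64.0%, above that of the T lymphocytes. In the progenitor/stem cells the shares fell with thinning from 41.1% to 14.0% for Lat, from 47.4% to 15.6% for Rhoh and from 22.1% to 6.52% for Lcp2, all above those of the erythroblasts. The granulocytes had Lcp2 in 23 of 96 wells (24.0%), or 12.3% after thinning.

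**Figure D2:**
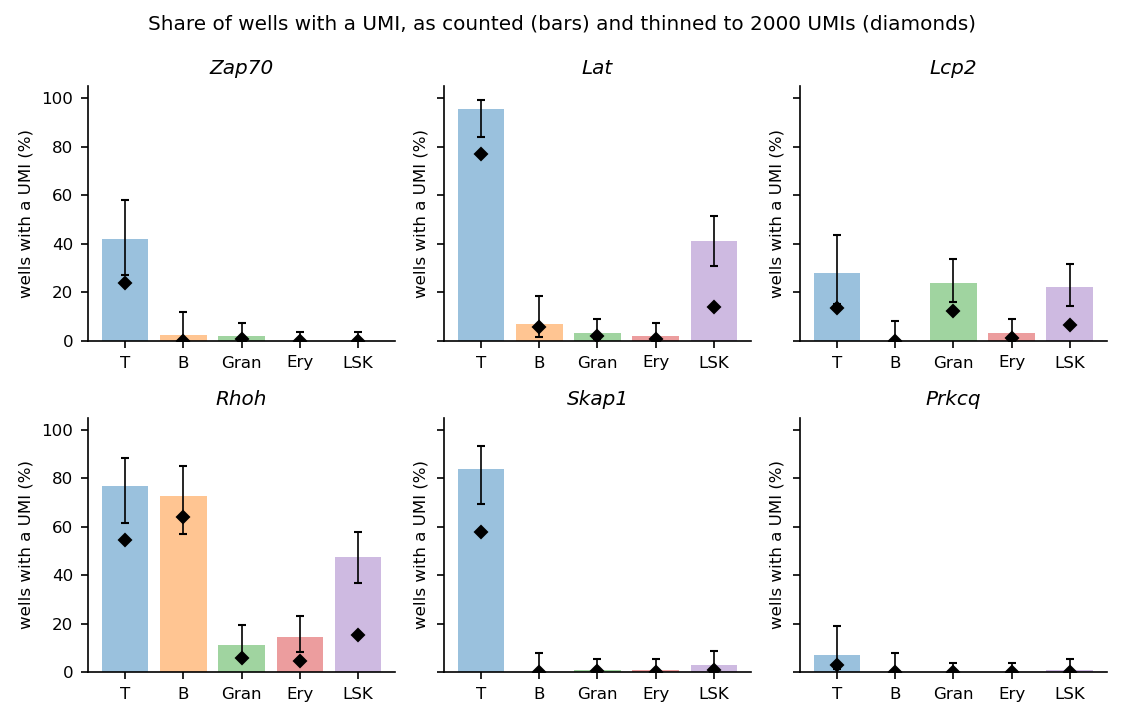
Share of wells with at least 1 UMI of each member, in percent on an axis from 0, for the populations T, B, Gran (granulocytes), Ery (erythroblasts) and LSK (progenitor/stem cells). Bars are the shares as counted with 95% exact binomial intervals, and diamonds the expected shares after thinning each well to 2000 UMIs. Lat falls from 41.1% to 14.0% in LSK on thinning, and Rhoh in B lymphocytes from 72.7% to 64.0%, over 33 of 44 wells.

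Most T lymphocytes showed several members at once. All 43 wells held at least 1 member, 42 held at least 2 and 36 at least 3, with 1 to 21 UMIs of the members together and a median of 8. The well with the fewest was P4, which had 1 UMI of Lat and none of the CD3 chains among its 426 UMIs. The well with the most, O4, held all 6 members and was also the deepest, with 10874 UMIs. Lat and Skap1 were found together in 34 wells, Rhoh and Skap1 in 28, and Zap70 and Skap1 in 17. The products of the separate shares give 34.3, 27.6 and 15.1 wells, so these counts are near what the shares alone give. In the other populations the median was 1 member per well for B lymphocytes and progenitor/stem cells and 0 for granulocytes and erythroblasts, and 3 was the most in any of their wells. The B lymphocyte well A8, whose Gr1 fluorescence was 15209, held no UMI of any member, and neither did well B2, whose CD3 fluorescence of 7905 lay within the range of the T lymphocyte wells.

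The T lymphocytes were also divided at their median CD3 fluorescence of 10475 (arbitrary units, recorded for each cell at the sort). The 22 wells at or above it and the 21 below it held 75 and 79 UMIs of Lat (ratio of CPM 0.938, 0.675 to 1.30), 40 and 40 of Rhoh (0.988, 0.621 to 1.57), 51 and 43 of Skap1 (1.17, 0.766 to 1.80), and 20 and 12 of Zap70 (1.65, 0.767 to 3.70). All 4 intervals include 1, at median depths of 4208.5 and 4638 UMIs per well. Lcp2 gave 6 and 9 UMIs (0.659, 0.193 to 2.07) and Prkcq 3 and 0. The intervals of the markers Cd8a (0.435, 0.280 to 0.663) and Cd8b1 (0.502, 0.322 to 0.769) lay below 1, while those of Cd4 and the CD3 chains included 1. Cd8a and Cd8b1 were each found in only 6 of the 22 wells at or above the median and 11 of the 21 below it. These intervals leave out the spread between cells, so whether the 2 sides differ in Cd8 transcripts cannot be told from them. In the progenitor/stem cells, Lat gave 23 UMIs in the 48 wells with more c-Kit fluorescence and 38 in the 47 with less (0.583, 0.332 to 1.004), and 31 and 30 in the same division by Sca-1 (1.12, 0.654 to 1.91). Neither division separated Lat beyond counting error.

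**Figure D3:**
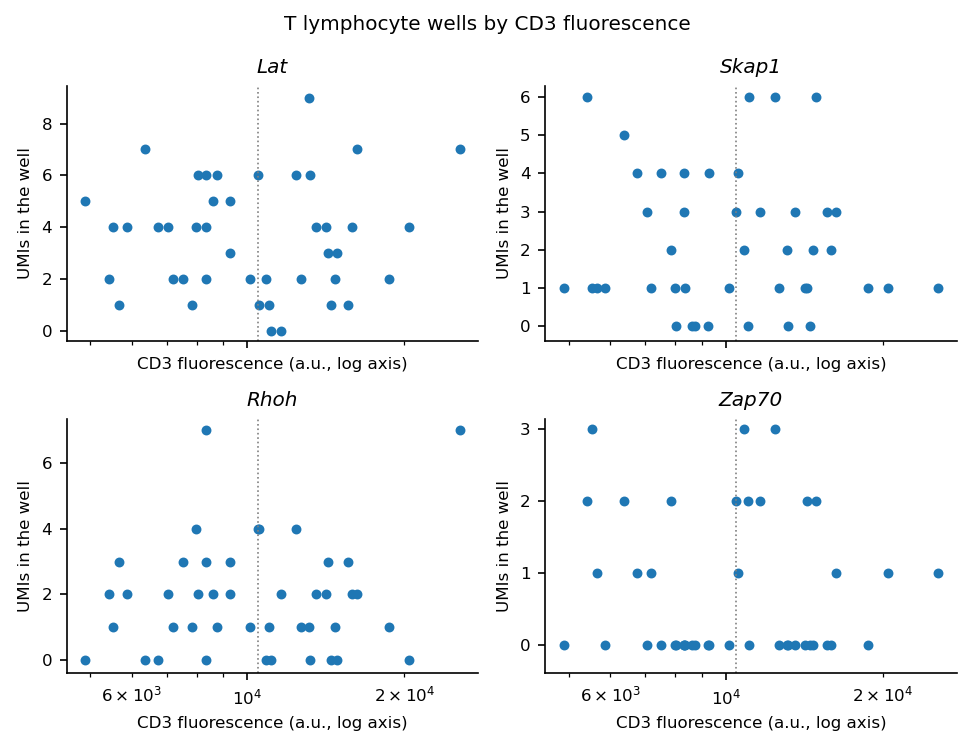
UMIs of Lat, Skap1, Rhoh and Zap70 in each of the 43 T lymphocyte wells (points) against the CD3 fluorescence of the same cell in arbitrary units on a log axis, with the median of 10475 as a dotted line. Wells with 0 UMIs of Zap70 and wells with 2 or 3 occur on both sides of the line.

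Members and their relatives divided the UMIs differently in the lineages. Zap70 made up 88.9% of the 36 UMIs of Zap70 and Syk in T lymphocytes (73.9 to 96.9) and 0.658% of 152 in B lymphocytes (0.0167 to 3.61). Syk, which takes the part of Zap70 at the B cell receptor and at Fc receptors, gave 151 UMIs in B lymphocytes, 114 in granulocytes, 158 in progenitor/stem cells, 14 in erythroblasts and 4 in T lymphocytes. Its level of 20.0 CPM in the T lymphocytes compares with 1112 CPM in the B lymphocytes, a ratio of T over B of 0.0180 (0.00483 to 0.0469).

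Skap1 gave 94 of 97 UMIs of Skap1 and Skap2 in the T lymphocytes (96.9%, 91.2 to 99.4). Among granulocytes it gave 1 of 140 and among progenitor/stem cells 3 of 149. Skap2, the more widely used homologue, was at 344 CPM in granulocytes, 175 CPM in progenitor/stem cells and 15.0 CPM in T lymphocytes. The 20 UMIs of this pair in the B lymphocytes were all of Skap2.

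Lat2, the scaffold of B lymphocytes and mast cells, gave 30 UMIs in the progenitor/stem cells against 61 of Lat, so Lat made up 67.0% there (56.4 to 76.5). In the T lymphocytes Lat2 was at 0 against 154 UMIs of Lat. Of the 39 progenitor/stem cell wells with Lat, 11 also held Lat2. In the B lymphocytes the pair gave only 5 UMIs, 3 of Lat and 2 of Lat2.

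Lcp2 and Blnk, the adaptors that fill the same place in T and B lymphocytes, gave 15 and 0 UMIs in T lymphocytes and 0 and 56 in B lymphocytes. The granulocytes had 26 of Lcp2 and 3 of Blnk, and the progenitor/stem cells 25 and 15. Prkcd, a protein kinase C isoform of B lymphocytes and myeloid cells, gave 10 UMIs in the T lymphocytes against 3 of Prkcq, and 152 in the granulocytes, where Prkcq was at 0. Prkcq made up 23.1% of the 13 UMIs of the pair in the T lymphocytes (5.04 to 53.8), so their order there is within counting error.

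**Figure D4:**
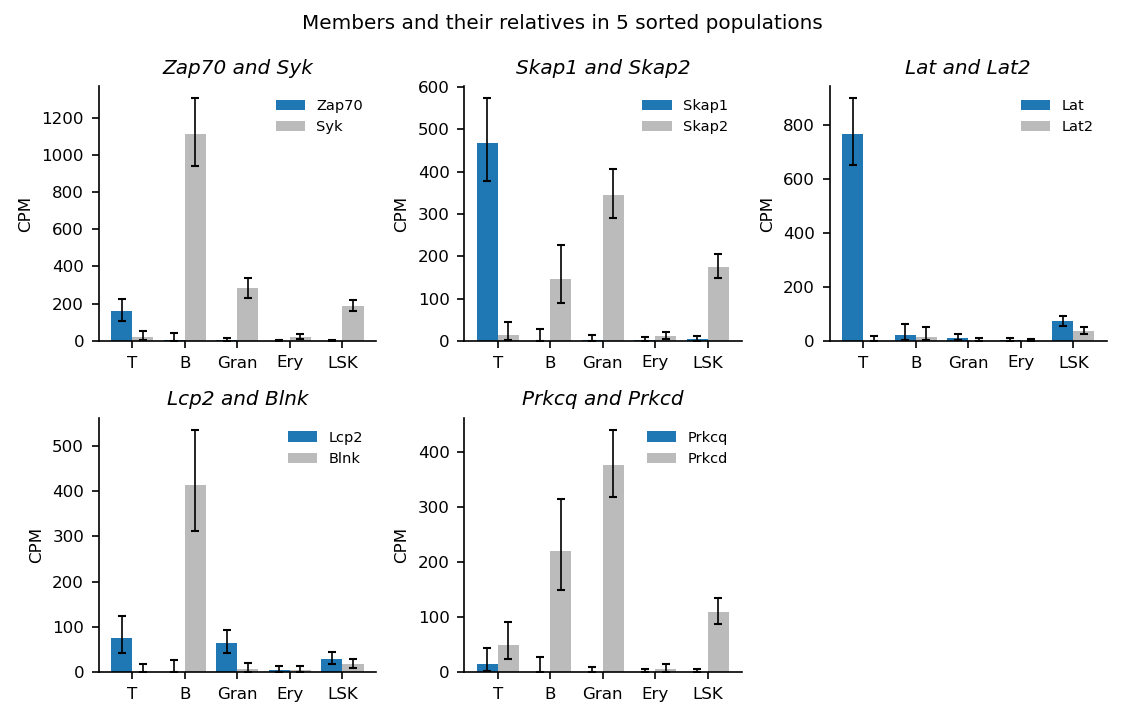
Levels of 5 members (blue) and a relative of each (grey) in the populations T, B, Gran (granulocytes), Ery (erythroblasts) and LSK (progenitor/stem cells), in CPM from summed UMIs on linear axes that differ between panels, with 95% exact Poisson intervals. Zap70 and Skap1 are taller than their relatives in T lymphocytes, and Syk, Skap2, Blnk and Prkcd are taller than the members in B lymphocytes.

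The wider pathway was read from 6 lists of 46 genes, of which 44 are measured here, with the same fold of 4 and the same minimum of 20 UMIs. Shares of all genes 4-fold higher in T lymphocytes were 6.92%, 10.2%, 16.3% and 2.96% against B lymphocytes, granulocytes, erythroblasts and progenitor/stem cells. In the same order, 4.21%, 10.5%, 10.0% and 3.21% were 4-fold lower. Many genes of the lists reached 20 UMIs mostly through the population where they are high. The counts of the lists are therefore only a description to be read beside these shares. The 3 CD3 chains measured were past the fold in the T lymphocytes against each of the 4 other populations. The T lymphocytes were sorted as CD3+ and these chains are among their markers, so this only describes the sort. Cd3d, Cd3e and Cd3g reached 20 UMIs through their T lymphocyte counts of 85, 64 and 116. Of the tyrosine kinases, 1 of 2 was past the fold against the B lymphocytes, 1 of 2 against the granulocytes, 2 of 2 against the erythroblasts and 1 of 3 against the progenitor/stem cells. Fyn, a Src family kinase, was the one past it in each pair, joined against the erythroblasts by Csk, which restrains that family. Fyn gave 22 UMIs in T lymphocytes and 1, 2, 2 and 17 in B lymphocytes, granulocytes, erythroblasts and progenitor/stem cells, and its ratio of T lymphocytes over progenitor/stem cells was 5.39 (2.73 to 10.8). Lck, the Src family kinase that phosphorylates the CD3 chains, was at only 9 UMIs in the T lymphocytes and did not reach the minimum in any pair.

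Of the partner adaptors, 2 of 3 were higher than in the B lymphocytes, Grap2, which joins Lat to Lcp2, and Fyb, the partner of Skap1. Against the granulocytes it was 0 of 3, against the erythroblasts 2 of 3 (Vav1 and Fyb) and against the progenitor/stem cells 1 of 4 (Fyb). Fyb was at 539 CPM (442 to 651) in T lymphocytes and 377 CPM (319 to 442) in granulocytes, so that of the partners Skap1 and Fyb the first was at 1 UMI in the granulocytes and the second at 152. Grap2 was at 94.8 CPM in the T lymphocytes and 33.0 CPM in the erythroblasts, and at 0 in the progenitor/stem cells, where Lat and Lcp2 were found.

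Of the effectors, Rasgrp1, which turns diacylglycerol into Ras activation, was past the fold against each of the 4 populations. It gave 81 UMIs in T lymphocytes and 12 in B lymphocytes, a ratio of 4.57 (2.48 to 9.22), with 1 of 4 effectors past the fold in that pair, 1 of 4 against the granulocytes, 3 of 4 against the erythroblasts and 2 of 5 against the progenitor/stem cells. Of the inhibitors, 0 of 6 were past the fold against the B lymphocytes, 2 of 7 against the granulocytes, 5 of 6 against the erythroblasts and 2 of 10 against the progenitor/stem cells. Dgka, the kinase that removes diacylglycerol, was among them against the latter 3, with 185 UMIs in the T lymphocytes, and stood just under the fold against the B lymphocytes at 3.92 (2.68 to 5.90). Of the counterparts used in other lineages, 4 of 5 were 4-fold lower in the T lymphocytes than in the B lymphocytes (Syk, Blnk, Skap2 and Prkcd), 3 of 5 lower than in the granulocytes (Syk, Skap2 and Prkcd) and 2 of 7 lower than in the progenitor/stem cells (Syk and Skap2). Against the erythroblasts 1 counterpart reached 20 UMIs, Ptpn18, and it was 4-fold higher in the T lymphocytes. Syk, Blnk, Skap2 and Prkcd reached 20 UMIs against the B lymphocytes mostly through B lymphocyte counts of 151, 56, 20 and 30. Their T lymphocyte counts were 4, 0, 3 and 10, so these calls are a description only.

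**Figure D5:**
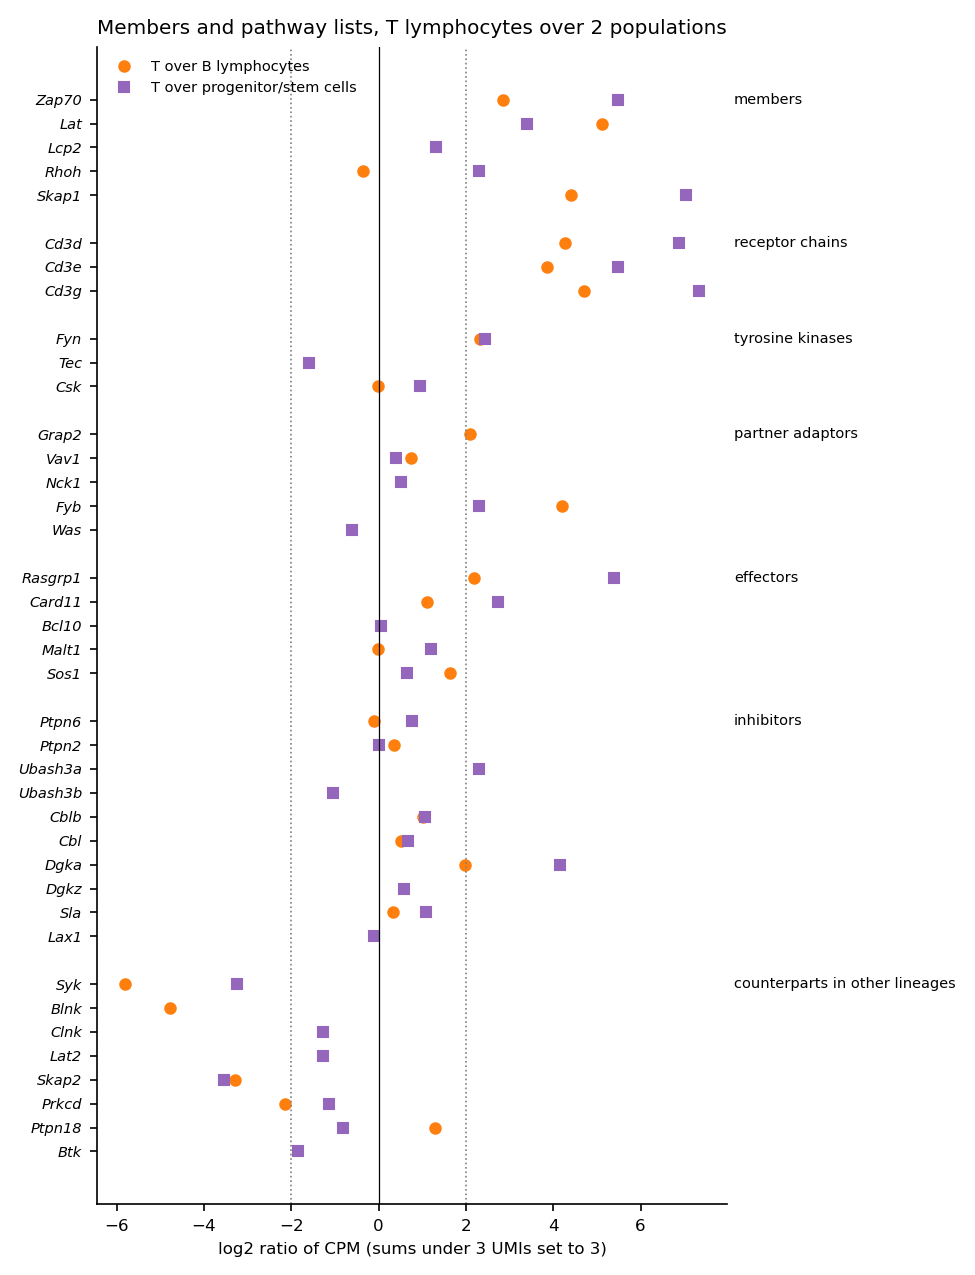
Log2 ratio of CPM of T lymphocytes over B lymphocytes (circles) and over progenitor/stem cells (squares) for the members and the genes of the 6 pathway lists with at least 20 UMIs in the pair, with sums under 3 UMIs set to 3. Dotted lines mark the fold of 4 in each direction. The 3 CD3 chains, part of the receptor by which the T lymphocytes were sorted, lie to the right of the upper line in both comparisons. Syk and Skap2 lie to the left of the lower one.

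The genes whose levels over the 5 populations lay nearest to each member were ranked among 6317 genes with at least 50 UMIs, by the Euclidean distance in log2(CPM + 10). For Skap1 these were Cd8b1 (0.257), Cd3g (0.647) and Cd6 (0.776), for Zap70 Camk4 (0.762), Cd6 (1.21) and Cd5 (1.30), and for Lat C230085N15Rik (1.14), 5830444F18Rik (1.24) and Thy1 (1.44). Lcp2 lay nearest to Oas2 (0.718), Ndfip2 (0.944) and Tiam1 (0.976), and Rhoh to Zfp36l1 (1.38), Foxp1 (1.60) and Tcf12 (1.68).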

How the data were processed

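The counts of single cells in 374 wells of 1 plate were used. The authors deposited unnormalized UMI counts, whole numbers for each gene in each well, made with *scPipe*, which assigns aligned reads to exons, demultiplexes them by the designed cell barcodes and collapses UMIs. Not given in the sources used here are the aligner version, the genome build, the annotation and whether strand was used. The well in each column name gave its sample, and 9 columns without a matching sample were left out. Symbols and coordinates came from GENCODE M21, and promoters from RefSeq. Ptpn22, Cd247 and Prkcb are not analysed here, and 1 gene of the pathway lists is not reported here and was left out of their counts.

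For each population the UMIs of its wells were added up and scaled to CPM on mouse genes, without the ERCC rows. Cells of 1 mouse are not replicates, so no p-value was computed. Intervals are 95% exact Poisson (sums), exact binomial (shares, Clopper-Pearson) or exact conditional binomial (ratios). For calls past 4-fold, sums under 3 UMIs were set to 3 and genes needed 20 UMIs in the pair. No cell was filtered, 1 cell was sorted per well, and no doublet caller was run. The members, the pathway lists and the markers were chosen with earlier results of these data known. The T lymphocyte markers were Lck, Tcf7, Cd4, Cd8a, Cd8b1 and the 3 CD3 chains, the B lymphocyte markers Vpreb3, Pax5, Ebf1, Ighm, Ms4a1, Cd79a and Cd79b, and the other lists held 6 to 8 genes. Genes named were the members, the pathway lists and the 3 genes nearest each member. Prkcq, with 4 UMIs in all, was left out of the nearest genes.

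Alternatives changed the scaling (scran 1.30.0 size factors, ERCC UMIs, the total without the 20 most abundant genes, the mean over wells), the wells, the fold, the minimum count, the floor and the thinning. The computation of the ratio intervals was checked on simulated Poisson sums, which hold only the counting error that the intervals assume. The spread between cells was not simulated. Python 3.11.15, numpy 2.4.6, pandas 2.3.3, scipy 1.17.1, matplotlib 3.10.9 and R 4.3.3 were used.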

Additional observations from a re-analysis of the deposited data

How the results depend on the processing

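Each population is 1 sample, so the values compare these sorted cells and not mice, and low sums such as the 15 UMIs of Lcp2 in the T lymphocytes limit what could be seen. No paired analysis was possible because each population is 1 sample and well numbers only name the wells. The count of members highest in the T lymphocytes was 5 with Prkcq and its 3 UMIs included and ran from 4 to 6 under the alternatives, and the counts past 4-fold ran from 2 to 3 against the B lymphocytes, 3 to 4 against the granulocytes, and 3 to 5 against the erythroblasts and against the progenitor/stem cells. The share of all genes past the fold moved too, against the progenitor/stem cells from 1.45% at 8-fold to 9.17% at 2-fold and 34.0% with a minimum of 1 UMI, the last pair being where 5 members were counted. In this comparison any gene at 3 UMIs or fewer in both populations is set to 4.17-fold by the floor alone. With a minimum of 1 UMI such genes count as past the fold, Prkcq among them, so the 34.0% partly reflects the floor. Of 160 log2 ratios of single members under the alternatives, 157 moved by less than their counting interval. The others were Rhoh over the erythroblasts with scran size factors (3.28 instead of 4.15), and Lat and Rhoh over the progenitor/stem cells with ERCC UMIs. The 157 include values that could not move. Leaving out well A8 changes only ratios to the B lymphocytes, and leaving out plate row N only those to the progenitor/stem cells. A changed denominator moves all members of a comparison alike. With scran size factors the median log2 ratio of all genes went from 0.48 to -0.20 against the granulocytes and from 0.29 to -0.57 against the erythroblasts. With ERCC UMIs it went from 0.27 to 0.70 against the B lymphocytes. The mean over wells moved members differently: against the B lymphocytes the log2 ratio of Zap70 went from 2.85 to 1.69 and that of Lat from 5.12 to 5.31. An alternative without plate row N, the row beside the T lymphocytes, and the ratios between neighbouring populations under other scalings were chosen after seeing the data. The first left every count of members as it was.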
